A study of Mus musculus with 9 samples.

Results

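The thioredoxin system was examined in cultured mouse lung type II cells with and without the transcription factor Nrf2, and in Nrf2-deficient cells given GSH. The genes looked for were 10: thioredoxin (Txn1), thioredoxin reductase (Txnrd1), sulfiredoxin (Srxn1), the peroxiredoxins Prdx1 to Prdx6 and the thioredoxin-interacting protein gene Txnip. A probe set, the group of oligonucleotides that reports 1 transcript on an Affymetrix array, was taken as a member when the platform annotation gave it 1 gene symbol and that symbol was 1 of these. This found 18 of the 45037 probe sets analysed, for 7 of the 10 genes, with 4 each for Srxn1 and Prdx4, 3 for Txnrd1, 2 each for Txn1, Prdx2 and Txnip, and 1 for Prdx3. Prdx1 had 5 probe sets that the annotation also gives to the pseudogene Gm21399, so it was not analysed here, nor were Prdx5 and Prdx6. Signal was high enough for testing in 16 of the 18 probe sets.

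Thioredoxin is a small protein that reduces disulfides in other proteins and is itself recharged by thioredoxin reductase, a selenium-containing enzyme that draws on NADPH. Peroxiredoxins are abundant enzymes that break down hydrogen peroxide and mostly take their electrons from thioredoxin, and sulfiredoxin repairs peroxiredoxins whose active cysteine has been overoxidised. Txnip binds thioredoxin and inhibits it, and Nrf2 is known for switching on several genes of this system under oxidative or electrophilic stress.

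There were 9 arrays in 3 groups of 3, all from type II cells that the labels attribute to female ICR10 mice aged 2 months and that were cultured for 5 days with keratinocyte growth factor. Wild-type cells came from Nrf2+/+ mice, knockout cells from Nrf2-/- mice, and the other group was Nrf2-/- cells supplemented with GSH, the usual abbreviation of glutathione. No dose or time was found for GSH, and the treatment field of the labels reads as untreated for every array. The design text speaks of 3 sets of isolated cells per genotype, but no label ties an array to an animal or an isolation. The p-values therefore cover the spread among these arrays alone, and part of it may be technical. A code in the titles holds a set number that divides each group into 2 arrays of set 2 and 1 array of set 3. What the sets are is not stated, and the set was a term in the model.

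By its bright probe set Nfe2l2, which encodes Nrf2, read 3879, 3889.8 and 4173 in wild type, 73.6, 77.4 and 28.7 in knockout, and 45.3, 46.2 and 33.3 with GSH, so all 6 knockout arrays were low. A dim probe set of the gene read 42.2 ± 8.32 in wild type, and 46.7 ± 19.0 and 148 ± 36.1 in the knockout groups without and with GSH (SD, n = 3). Although the labels call every animal female, the Y-linked Eif2s3y read 801 ± 121 in wild type and 9.27 ± 13.1 and 7.43 ± 7.68 in the knockout groups without and with GSH. Xist, expressed from the inactive X chromosome, read 157 ± 28.2, 3203 ± 1248 and 3510.0 ± 1112 in the same order, so against wild type the effect of genotype cannot be told apart from this split of sex-linked genes. Of the type II markers, Sftpc, the surfactant protein C gene, lay at the level of the control probe sets on all 3 wild-type arrays, while Abca3, the surfactant lipid transporter, read 914.5 ± 104. Markers of other cells were present too: 15 macrophage markers summed to 55819 to 58885 in wild type, 90960 to 111785 in knockout and 114411 to 138080 with GSH. For 12 fibroblast markers the sums were 102148 to 110730, 122408 to 162073 and 62627 to 70679, and for 4 general epithelial markers 32093 to 35527, 10642 to 12082 and 44975 to 47743. None of the markers in those 3 lists lay at the control level on all arrays of a group. Of 8 type I markers tested 6 were lower in knockout than in wild type, of 8 type II markers 1 was higher and 2 lower, and of 6 endothelial markers 2 were lower. Over all 11620 genes tested with 1 probe set each, 32.4% were called, as defined below, in this comparison. The shares of the type II (37.5%) and endothelial markers (33.3%) were near that. The club and ciliated lists had 1 tested marker each, the former lower in knockout and the latter not called, and no lymphocyte marker was bright enough for a test. In these bulk cultures fewer cells of a type and less RNA per cell cannot be told apart, and the part of cell composition in the results below was not tested.

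Values are array intensities in arbitrary units, given as mean ± SD with n = 3 unless stated, and changes are log2 differences with standard error (SE) from limma, with Benjamini-Hochberg adjusted p over all 22519 probe sets tested. A difference with adjusted p under 0.05 is called.

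In knockout against wild type, sulfiredoxin and thioredoxin reductase transcripts were lower by 3 probe sets each. Txnip and Prdx4 were higher by 1 probe set each, and the thioredoxin and peroxiredoxin 2 and 3 transcripts were not called. Of the 16 member probe sets tested between knockout and wild type, 2 were higher and 6 lower in knockout. Over all probe sets tested 29.1% were called in this comparison, 14.6% higher and 14.6% lower. The 6 lower probe sets belong to Srxn1 and Txnrd1 alone, 3 for each, and the 2 higher to Prdx4 and Txnip, so 4 of the 7 genes had a call. The groups did not overlap in 6 of the 16 probe sets, against 30.2% of all tested, and the median log2 change was -0.28, against 0.0026 for all. This median is over probe sets, of which Srxn1 holds 4 and Txnrd1 3, so it does not describe a shift of the 7 genes. By the brightest probe set of each gene the change was -1.97 for Srxn1 and -0.89 for Txnrd1. For Txn1, Prdx2 and Prdx3 it was 0.05, -0.01 and -0.02, and for Prdx4 and Txnip 0.33 and 0.74.

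**Figure D1:**
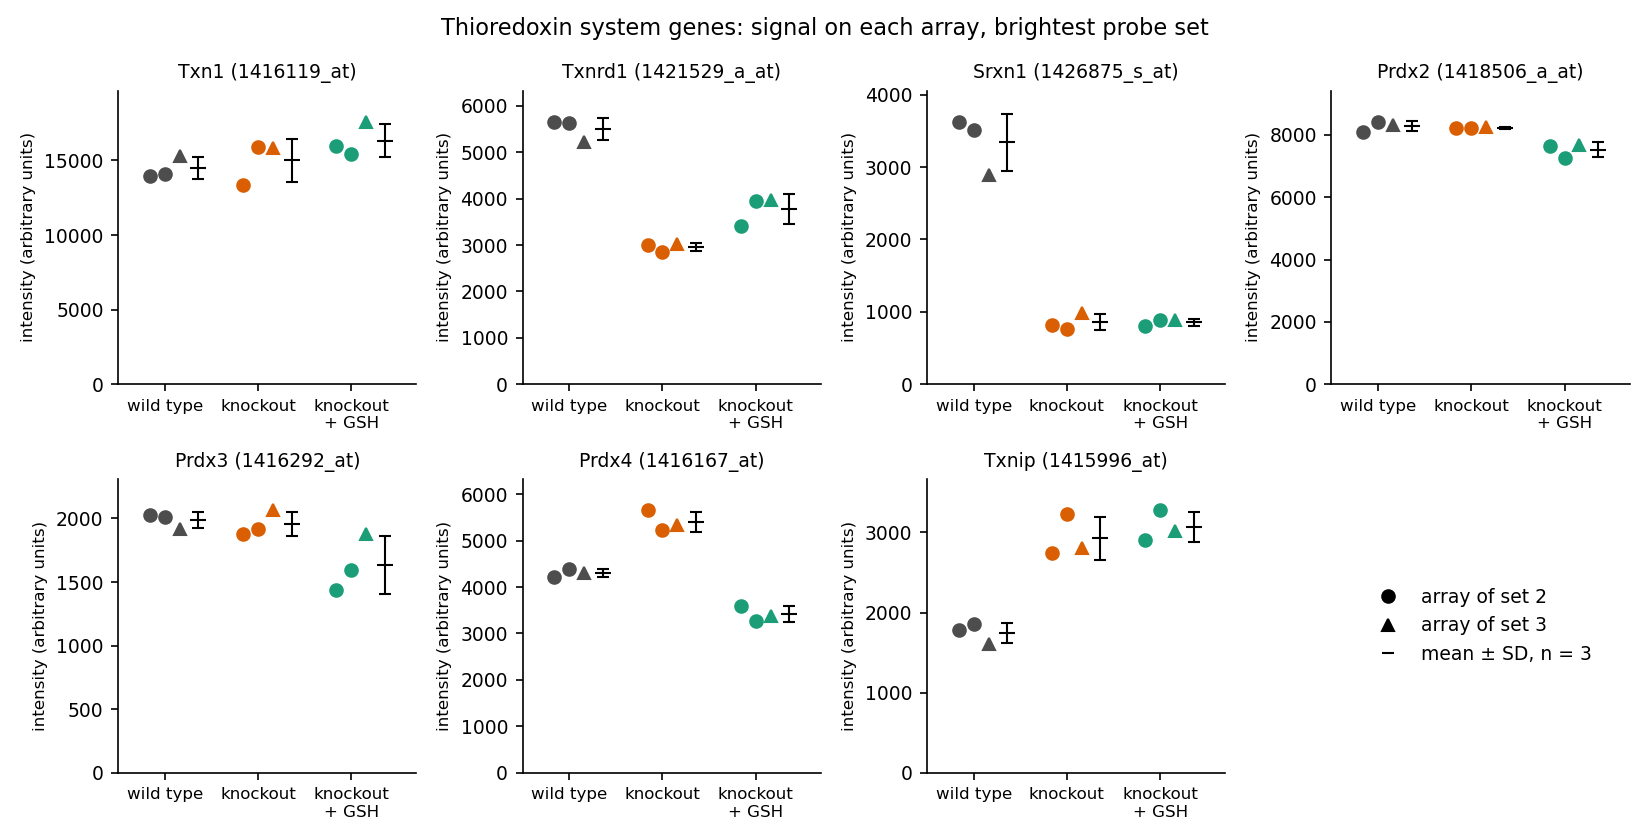
Signal of the brightest probe set of each of the 7 genes on every array, in arbitrary intensity units from 0, by group; circles are set 2, triangles set 3, and bars mean ± SD (n = 3). Srxn1 drops from 2895.5 or more to 981 or less in both knockout groups, Txnrd1 forms 3 separate levels, and Txnip is higher in both knockout groups than in wild type.

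Srxn1 had the largest change of the 16. The gene lies on chr2:152105524-152111376 (GRCm38.p6), and its brightest probe set, 1426875_s_at, read 3622, 3513 and 2895.5 in wild type, 820.4, 768 and 981 in knockout, and 804, 886 and 889 with GSH. The wild-type arrays lay far above all 6 knockout arrays, and the knockout arrays with and without GSH were interleaved. Knockout stood at 25.6% of wild type, at 856 ± 111 against 3344 ± 392, a log2 change of -1.97 (SE 0.11, limma adjusted p = 2.3e-07). With GSH it stood at 25.7% of wild type (-1.95, SE 0.11, limma adjusted p = 8.4e-08). Between the knockout groups the log2 difference was 0.01, with a 95% interval of -0.23 to 0.26 (limma adjusted p = 0.95). In set 2 alone the knockout lay 2.17 below wild type on the log2 scale and in set 3, with 1 array per group, the log2 difference was -1.56.

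The other Srxn1 probe sets differed in how much they moved. For 1425351_at the wild-type arrays read 1014, 839.6 and 548, the knockout arrays 301, 298 and 251, and the GSH arrays 299.6, 311 and 230.2. The lowest wild-type array was that of set 3, and it still lay above every knockout array. The log2 change was -1.46 in knockout (SE 0.13, limma adjusted p = 1.1e-05) and -1.48 with GSH (SE 0.13, limma adjusted p = 3.9e-06). For 1451680_at the wild-type arrays averaged 901 ± 262, the knockout arrays 596 ± 106 and the GSH arrays 544 ± 76.6. There the set 3 wild-type array, at 599, lay within the range of the knockout arrays, and the log2 changes against wild type were -0.56 (SE 0.12, limma adjusted p = 0.0050) and -0.69 (SE 0.12, limma adjusted p = 7.2e-04). Both calls were lost without the set in the model (limma adjusted p = 0.16 and 0.053). The dimmest, 1419942_at, read 215.5, 255 and 277 in wild type and 311, 229.8 and 37.5 in knockout, the last below the control level of its array. It was not called in any comparison (-0.84 in knockout against wild type, SE 0.51, limma adjusted p = 0.26), and in set 2 alone its log2 difference was 0.19. None of the 4 was called between the knockout groups, where their log2 differences were 0.01, -0.13, -0.02 and 0.40.

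**Figure D2:**
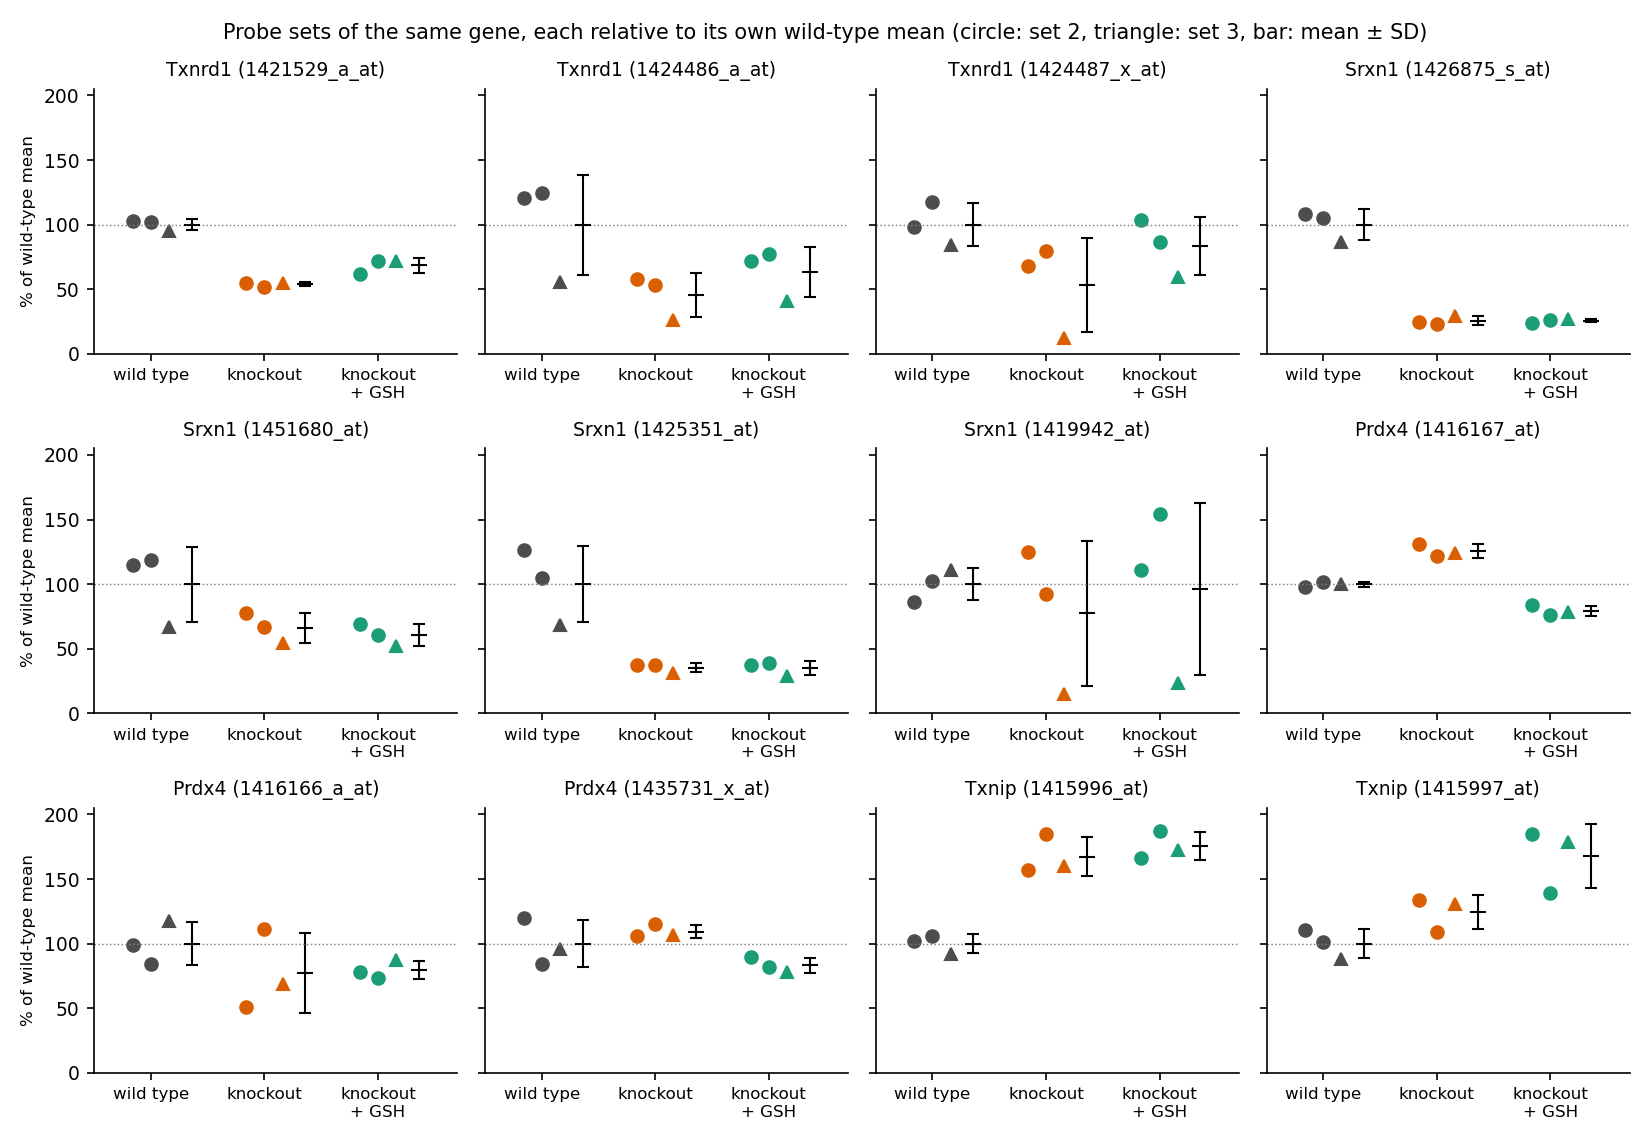
Signal on every array as a percentage of the wild-type mean of the same probe set, for the tested probe sets of Txnrd1, Srxn1, Prdx4 and Txnip (circles set 2, triangles set 3, bars mean ± SD, n = 3). In 3 of 4 Srxn1 probe sets both knockout groups have lower means than wild type at about the same level, while 1419942_at is scattered by the low set 3 knockout arrays.

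The RefSeq sequence upstream of Srxn1 is shown because it was the member that fell most in cells without Nrf2. Nrf2 is known to bind, as a dimer with small Maf proteins, the antioxidant response element, searched here as TGACNNNGC, and the related AP-1 and NF-E2 core TGAGTCA was searched beside it, each on both strands of the 250 bases before the annotated start. The motifs can overlap, since a reverse-strand TGAGTCA reads TGACTCA. Srxn1 held 2 matches to TGAGTCA, at 102 to 96 and 45 to 39 bases before the start, and none to TGACNNNGC. The match nearer the start is followed by GC and so reads TGAGTCAGC, which differs from TGACNNNGC only by a G for the C. Other forms of the element were not searched, so the lack of a TGACNNNGC match does not show that the window lacks such an element. A match to TGAGTCA was found in 4.46% of the 32851 upstream windows and one to TGACNNNGC in 10.2%. The Srxn1 window, chr2:152105274-152105523 on the plus strand (GRCm38.p6), has the 2 TGAGTCA matches in capitals.
Srxn1: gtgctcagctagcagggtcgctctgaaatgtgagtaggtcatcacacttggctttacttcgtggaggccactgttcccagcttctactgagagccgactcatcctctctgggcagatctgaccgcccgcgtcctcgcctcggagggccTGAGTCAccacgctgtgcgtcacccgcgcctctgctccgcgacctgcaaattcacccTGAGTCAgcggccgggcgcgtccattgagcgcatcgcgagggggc
A match describes these letters and does not show that a factor bound there.

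Txnrd1, on chr10:82833951-82897724 (GRCm38.p6), was lower in knockout than in wild type and was partly higher again with GSH. Its brightest probe set, 1421529_a_at, read 5651, 5629 and 5222 in wild type, 3007, 2856 and 3012.5 in knockout, and 3406, 3945 and 3969 with GSH. No array of a group reached into the range of another group, with GSH arrays between the other 2. Knockout stood at 53.8% of wild type (2959 ± 88.7 against 5501 ± 242, log2 change -0.89, SE 0.07, limma adjusted p = 4.5e-06). With GSH the mean was 3773 ± 318, 1.28 times the knockout mean (0.35, SE 0.07, limma adjusted p = 0.0031) and 68.6% of wild type (-0.55, SE 0.07, limma adjusted p = 9.3e-05). The same order held in set 3, with log2 differences of -0.79 for knockout against wild type and 0.40 for GSH against knockout.

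The probe set 1424486_a_at moved the same way, with 1677, 1733 and 770.0 in wild type, 804, 737 and 362 in knockout, and 1003, 1074 and 569 with GSH. In every group the lowest array was that of set 3, so the groups overlapped across sets but kept their order within each set. The log2 change was -1.13 in knockout (SE 0.09, limma adjusted p = 2.9e-06) and 0.51 for GSH against knockout (SE 0.09, limma adjusted p = 8.7e-04). The latter call was lost with no set in the model (limma adjusted p = 0.45) and with the replicate number as a block in place of the set (limma adjusted p = 0.095). The former was lost with no set in the model (limma adjusted p = 0.10). Against wild type the GSH arrays were lower by 0.62 on the log2 scale (SE 0.09, limma adjusted p = 1.4e-04, and 0.29 with no set in the model). The dim probe set 1424487_x_at read 309, 371 and 267 in wild type, 215, 251.5 and 37.4 in knockout, and 327, 274.5 and 189 with GSH, the lowest knockout array being below its control level. It fell in knockout by 1.31 on the log2 scale (SE 0.38, limma adjusted p = 0.025) and by 0.54 in set 2 alone (limma adjusted p = 0.074), and the log2 difference was -2.83 in set 3, with 1 array per group. The call was also lost with no set in the model (limma adjusted p = 0.22) and without the intensity trend (0.063). So it was without wild type replicate 4 (limma adjusted p = 0.053) or replicate 5 (0.15) and with the replicate number as a block (0.078). No label links the wild-type numbers to the knockout numbers, and number 4 is set 2 in wild type but set 3 in knockout. Here and below, that block therefore cannot decide a call against wild type. The difference of 1424487_x_at between the knockout groups was not called (1.02, SE 0.38, limma adjusted p = 0.060). It passed without wild type replicate 5 (0.039) or knockout replicate 3 (0.027). With GSH against wild type it was -0.28 (SE 0.38, limma adjusted p = 0.58). Whether GSH acted differently on Txnrd1 and Srxn1 was not tested.

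Txnrd1 has 3 upstream windows in the RefSeq table, for alternative starts, and 1 of them held a match to TGACNNNGC, on the minus strand 92 to 84 bases before the start. It is shown because Txnrd1 was lower in knockout than in wild type by all 3 of its tested probe sets. The match is in capitals, and the window is chr10:82858956-82859205, plus strand (GRCm38.p6).
Txnrd1: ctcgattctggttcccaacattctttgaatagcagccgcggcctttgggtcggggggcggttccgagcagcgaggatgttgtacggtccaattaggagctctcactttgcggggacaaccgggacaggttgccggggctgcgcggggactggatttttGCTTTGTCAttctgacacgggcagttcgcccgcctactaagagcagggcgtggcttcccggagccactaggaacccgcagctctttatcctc
The windows of Txn1, Prdx2, Prdx3, Prdx4 and Txnip held no match to TGACNNNGC or TGAGTCA. Of the genes without values, Prdx1 held 1 match to TGACNNNGC and 2 to TGAGTCA, and Prdx5 held none.

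Txnip, on chr3:96557957-96561857 (GRCm38.p6), went the other way from Srxn1 and Txnrd1. By the probe set 1415996_at it read 1784, 1851 and 1604 in wild type, 2744, 3227 and 2801 in knockout, and 2904, 3274 and 3018.5 with GSH. All 6 knockout arrays lay above the wild-type arrays, and the knockout groups overlapped. Txnip was 1.67 times higher in knockout (2924 ± 264 against 1746 ± 128, log2 change 0.74, SE 0.08, limma adjusted p = 3.3e-05) and 1.76 times higher with GSH than in wild type (0.81, SE 0.08, limma adjusted p = 6.6e-06). Between the knockout groups the difference was 0.07, with a 95% interval of -0.10 to 0.24 (limma adjusted p = 0.53).

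The other Txnip probe set, 1415997_at, gave a like difference between GSH and wild type, but placed the knockout arrays lower between them. It read 1504, 1374 and 1196 in wild type, 1814, 1485 and 1779 in knockout, and 2512, 1891 and 2424.5 with GSH. Knockout overlapped with wild type, and the GSH arrays lay above both groups. The log2 change was 0.74 for GSH against wild type (SE 0.13, limma adjusted p = 5.7e-04) and 0.42 for GSH against knockout (SE 0.13, limma adjusted p = 0.022). For knockout against wild type it was 0.32 (SE 0.13, limma adjusted p = 0.082). The call against knockout was lost without knockout replicate 3 (limma adjusted p = 0.088), GSH replicate 2 (0.088) or GSH replicate 4 (0.11), and in set 2 alone (0.070). It was also lost with no set in the model (limma adjusted p = 0.063) and without the intensity trend (0.063). Knockout against wild type passed instead without knockout replicate 3 (limma adjusted p = 0.042) or GSH replicate 3 (0.041).

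The Txnip upstream window is shown because Txnip was the member that rose in both knockout groups. Transcription of Txnip is known to follow glucose through the factors of the MondoA family (Mlxip, Mlxipl) with their partner Mlx, which bind paired E-box type sites. A pair of CACGNG sites with 5 bases between them was searched on both strands and matched 85 to 69 bases before the Txnip start, shown in capitals, and in 0.0457% of all windows. The window is chr3:96557707-96557956, plus strand (GRCm38.p6).
Txnip: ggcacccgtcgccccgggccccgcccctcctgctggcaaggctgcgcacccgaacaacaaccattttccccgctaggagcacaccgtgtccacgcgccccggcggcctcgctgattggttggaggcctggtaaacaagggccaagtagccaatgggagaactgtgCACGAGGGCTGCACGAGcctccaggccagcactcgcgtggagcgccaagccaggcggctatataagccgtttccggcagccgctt
Mlx and Mlxip were tested and not called between knockout and wild type, with log2 changes of 0.07 (SE 0.11, limma adjusted p = 0.66) and 0.22 (SE 0.09, limma adjusted p = 0.11). Mlxip was higher with GSH than in wild type (0.40, SE 0.09, limma adjusted p = 0.0048), and neither gene was called between the knockout groups.

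Txn1, the cytosolic thioredoxin gene on chr4:57943373-57956411 (GRCm38.p6), showed no called difference. Its brighter probe set, 1416119_at, read 13976, 14109 and 15321 in wild type, 13363, 15877 and 15839 in knockout, and 15968, 15447 and 17576.5 with GSH. Knockout arrays spanned the wild-type range, while the GSH arrays all lay above wild type by a small margin. The log2 changes were 0.05 for knockout against wild type (95% interval -0.10 to 0.20, limma adjusted p = 0.63), 0.12 for GSH against knockout (-0.03 to 0.27, adjusted p = 0.20) and 0.17 for GSH against wild type (0.02 to 0.33, adjusted p = 0.060). At this very bright signal the scaling decided the direction: after quantile normalisation knockout was lower than wild type (-0.18, limma adjusted p = 0.0057) and GSH against wild type was -0.06, while GSH against knockout passed (0.12, limma adjusted p = 0.032). The dimmer 1456734_at, at 370 ± 72.3, 341 ± 55.0 and 261 ± 98.9, was not called in any comparison. For GSH against wild type it had a log2 change of -0.56 (SE 0.22, limma adjusted p = 0.057), opposite in sign to the brighter probe set. It passed without wild type replicate 4 (limma adjusted p = 0.014) or GSH replicate 2 (0.011). It also passed with the replicate number, unlinked between these groups, as a block (limma adjusted p = 0.049). For GSH against knockout it passed without GSH replicate 2 (limma adjusted p = 0.028). The brighter one passed for GSH against wild type without knockout replicate 2 (limma adjusted p = 0.031) or replicate 3 (0.016), and for GSH against knockout without knockout replicate 3 (0.023).

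Of the 3 peroxiredoxin genes with values, Prdx4 had a probe set called in all 3 comparisons. It encodes the peroxiredoxin of the endoplasmic reticulum and lies on chromosome X, at chrX:155323918-155342272 (GRCm38.p6). The probe set 1416167_at read 4216, 4381 and 4302 in wild type, 5648, 5219 and 5334 in knockout, and 3598, 3276 and 3371 with GSH. The 3 groups formed separate levels, with knockout highest and GSH lowest. Prdx4 was 1.26 times higher in knockout than in wild type (5401 ± 222 against 4299.8 ± 82.4, log2 change 0.33, SE 0.06, limma adjusted p = 0.0022). With GSH it was 1.58 times lower than in knockout (3415 ± 166, log2 change -0.66, SE 0.06, limma adjusted p = 7.0e-06) and stood at 79.4% of wild type (-0.33, SE 0.06, limma adjusted p = 0.0010). The call between knockout and wild type was lost with the replicate number as a block (limma adjusted p = 0.056, and 0.29 with only these 2 groups). That block joins wild-type and knockout arrays by numbers that no label links, in place of the set, so the loss cannot decide the call. Xist, also from the X chromosome, was higher in knockout than in wild type as given above, and its part in this difference was not tested.

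The other Prdx4 probe sets did not all follow. For 1435731_x_at GSH was lower than knockout (699 ± 47.9 against 918 ± 41.6, log2 change -0.39, SE 0.12, limma adjusted p = 0.024), while knockout against wild type, at 841 ± 154, was not called (0.14, SE 0.12, limma adjusted p = 0.42). The call of GSH against knockout was lost with no set in the model (limma adjusted p = 0.076) and without the intensity trend (0.053). That fall was lost without knockout replicate 3 (limma adjusted p = 0.069) or 4 (0.083), without GSH replicate 3 (0.074) or 4 (0.086), and in set 2 alone (0.13). With GSH against wild type it was -0.25 (SE 0.12, limma adjusted p = 0.11), which passed without wild type replicate 4 (0.015). The probe set 1416166_a_at read 2515, 2143 and 2984 in wild type, 1291, 2839 and 1759 in knockout, and 1986, 1866 and 2221 with GSH. Knockout replicate 3, at 2839, stood well above the other knockout arrays. None of its differences was called, with a log2 change of -0.44 for knockout against wild type (SE 0.22, limma adjusted p = 0.17), opposite in sign to that of 1416167_at. Without knockout replicate 3 that change was -0.80 (limma adjusted p = 1.4e-04), GSH against knockout was 0.48 (limma adjusted p = 0.0025), and GSH against wild type, at -0.32, passed as well (limma adjusted p = 0.0079). The probe set 1431269_at was left out of the tests for low signal, at 41.4 ± 13.8, 55.7 ± 8.60 and 43.7 ± 8.65, with 1, 2 and 0 of 3 arrays above the control level.

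Prdx3, the mitochondrial peroxiredoxin gene on chr19:60864066-60874538 (GRCm38.p6), read 2029, 2012 and 1914 in wild type, 1881, 1919 and 2063 in knockout, and 1433.5, 1591 and 1880 with GSH. Wild type and knockout overlapped, and the GSH arrays lay below both groups, that of set 3 only just. The log2 change was -0.02 for knockout against wild type (95% interval -0.21 to 0.16, limma adjusted p = 0.87). It was -0.27 for GSH against knockout (SE 0.085, limma adjusted p = 0.030) and -0.29 for GSH against wild type (SE 0.085, limma adjusted p = 0.017). Neither call was firm. Against knockout it was lost when any knockout array or GSH replicate 2 or 3 was left out (limma adjusted p = 0.060 to 0.11) and with the replicate number as a block in place of the set (0.069). The same call was lost with no set in the model (limma adjusted p = 0.13), no filter on signal (0.056) or no intensity trend (0.077). Against wild type it was lost without wild type replicate 3 or 4 or GSH replicate 2 (limma adjusted p = 0.068 to 0.076). It was also lost with no set in the model (limma adjusted p = 0.079) and with the replicate number, unlinked between these groups, as a block (0.12).

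Prdx2, a cytosolic peroxiredoxin gene on chr8:84969622-84974811 (GRCm38.p6), read 8100.2, 8415.5 and 8315 in wild type, 8207, 8221 and 8243.5 in knockout, and 7653, 7256 and 7671 with GSH by 1418506_a_at. The GSH arrays lay below the other 6, which overlapped. The log2 change was -0.01 for knockout against wild type (95% interval -0.13 to 0.11, limma adjusted p = 0.92). For GSH it was -0.13 against knockout (SE 0.05, limma adjusted p = 0.092) and -0.14 against wild type (SE 0.05, limma adjusted p = 0.060). Both passed after quantile normalisation (-0.19, limma adjusted p = 0.0083, and -0.26, limma adjusted p = 7.9e-04), and the second also without knockout replicate 3 (limma adjusted p = 0.047). The dim 1430979_a_at was left out of the tests at 104 ± 18.2, 91.6 ± 11.2 and 53.5 ± 27.1, above the control level on 3, 3 and 1 of 3 arrays.

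**Figure D3:**
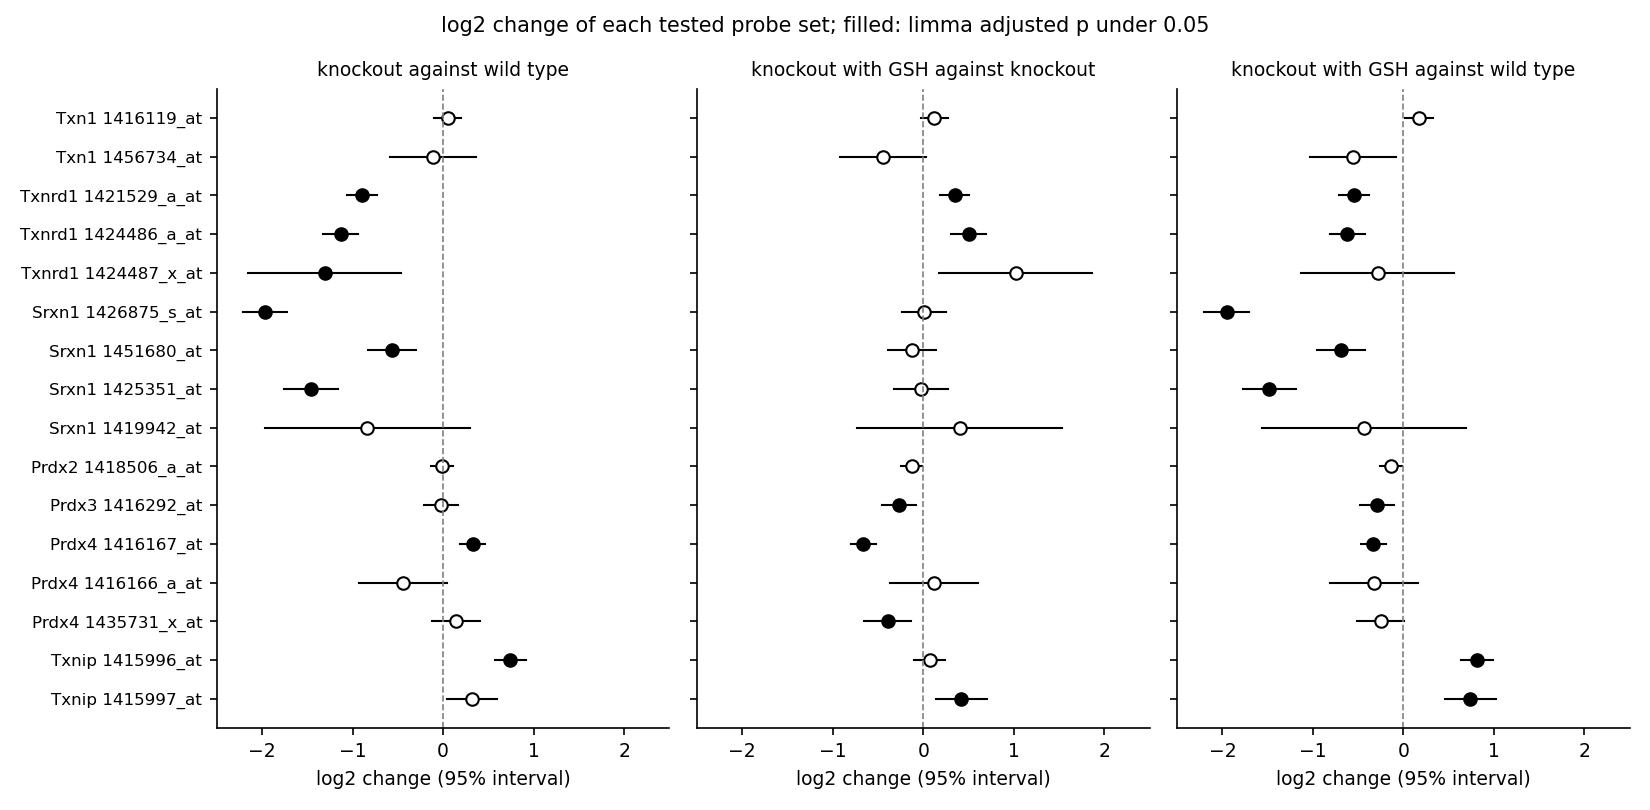
Log2 change with its 95% interval for the 16 tested probe sets in the 3 comparisons; filled points have a limma adjusted p under 0.05. Srxn1 lies near -2 in both comparisons with wild type and near 0 between the knockout groups, while Prdx4 1416167_at changes side between the first and second panels.

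With GSH, knockout cells had higher Txnrd1 and lower Prdx4 than without it, each by 2 probe sets. Prdx4 1416166_a_at did not follow (0.12, limma adjusted p = 0.72), and the call of lower Prdx3 was not firm, as given above. Of the 16 probe sets 3 were higher (Txnrd1 in 2, Txnip in 1) and 3 lower (Prdx4 in 2, Prdx3 in 1). This was 37.5% of the members, near the 35.4% called over all probe sets (18.4% higher and 17% lower), and the groups did not overlap in 6 of 16, against 33.6% of all. The median log2 change of the members was 0.041, as over all probe sets (0.041). Between GSH-supplemented knockout and wild type 9 of 16 were called, 2 higher (both Txnip) and 7 lower (Srxn1 in 3, Txnrd1 in 2, Prdx3 and Prdx4 in 1 each), against 44.7% of all probe sets (22.5% higher and 22.3% lower). The groups did not overlap in 9 of 16, against 43.4%, and the median was -0.33, against 0.021 for all. Again this median is over probe sets, many of them of Srxn1 and Txnrd1. These comparisons share the knockout or the wild-type arrays with the first. Beside the changes with GSH, fibroblast markers were lower than in knockout in 11 of 12 genes tested and higher in 0, general epithelial markers higher in 4 of 4, and macrophage markers higher in 8 and lower in 2 of 15. Type II markers were higher than in knockout in 5 of 8 and type I markers in 3 of 8, with 0 lower in either list, and of 6 endothelial markers 1 was higher and 1 lower. The single tested club and ciliated markers were both higher. Over all genes tested with 1 probe set each, 39.5% were called between GSH and knockout. Against wild type the GSH group was lower in 10 of 12 fibroblast markers, higher in 4 of 4 general epithelial markers and higher in 14 of 15 macrophage markers. In that comparison type II markers were higher in 4 of 8, type I markers higher in 1 and lower in 4 of 8, endothelial markers lower in 6 of 6, and the club marker was lower. There 48% of all genes tested were called. Beside the first comparison, macrophage markers were higher in knockout in 13 and lower in 2 of 15, fibroblast markers higher in 9 and lower in 1 of 12, and general epithelial markers lower in 4 of 4. Of all genes tested, 32.4% were called in it.

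The wider thioredoxin system was described with 42 further genes, 1 probe set each, of which 37 could be tested. Between knockout and wild type 4 rose and 4 fell, 21.6% of the 37 against 32.4% of all 11620 genes tested the same way, with a median log2 change of -0.05. Between GSH and knockout 7 rose and 6 fell (35.1% against 39.5%), and between GSH and wild type 6 rose and 7 fell (35.1% against 48%). The single calls among these genes were not put through the alternatives listed at the end, so those near 0.05 may not be firm.

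Among 18 other reductases and thioredoxin-fold proteins, 1 was higher and 2 lower in knockout than in wild type (16.7%, against 32.4% of all genes). The mitochondrial partners Txn2 and Txnrd2 were not among them. Txnl1, a thioredoxin-like protein of the proteasome, fell by 0.25 on the log2 scale (SE 0.07, limma adjusted p = 0.030) and Nxn, the nucleoredoxin gene, by 0.22 (SE 0.07, limma adjusted p = 0.046). Txndc12, a thioredoxin-fold protein of the endoplasmic reticulum, rose by 0.25 (SE 0.09, limma adjusted p = 0.049). It read 1934, 2124 and 2759 in wild type and 2395, 2073 and 3855 in knockout, so these groups overlapped. With GSH, Nxn read 896, 1059 and 1048 against 2911, 2799 and 2826 in knockout and 3354, 3339.5 and 3255 in wild type. Its GSH arrays lay far below the other 6, a log2 change of -1.51 against knockout (SE 0.07, limma adjusted p = 3.7e-08). In that comparison 1 of the 18 rose and 3 fell, among them Txndc5, a disulfide isomerase of the endoplasmic reticulum (-0.49, SE 0.10, limma adjusted p = 0.0023), and Txndc15 (-0.35, SE 0.09, limma adjusted p = 0.0081). Against wild type 1 rose and 4 fell with GSH. The shares called with GSH were 22.2% against knockout and 27.8% against wild type, where 39.5% and 48% of all genes were called.

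The α-arrestin relatives of Txnip did not share one pattern with it. Arrdc3, an α-arrestin that takes part in receptor trafficking, read 272, 260.5 and 371 in wild type, 833, 877 and 1211 in knockout, and 475, 513 and 559 with GSH. Its groups formed 3 separate levels with GSH in the middle, at log2 changes of 1.69 for knockout against wild type (SE 0.11, limma adjusted p = 4.8e-07) and -0.90 for GSH against knockout (SE 0.11, limma adjusted p = 4.4e-05). Of the 3 paralogs tested, 1 was higher in knockout than in wild type, and 2 were higher and 1 lower with GSH than without. All 3 were higher with GSH than in wild type. Over all genes tested, 32.4%, 39.5% and 48% were called in these 3 comparisons. Arrdc4, like Txnip a target of MondoA, had a log2 change of 0.24 in knockout against wild type (SE 0.10, limma adjusted p = 0.10) and 0.31 for GSH against knockout (SE 0.10, limma adjusted p = 0.034).

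Of the partners that use or sense thioredoxin, Map3k5, the stress kinase ASK1 that reduced thioredoxin holds inactive, rose in knockout by 0.51 (SE 0.11, limma adjusted p = 0.0053) and with GSH by a further 0.38 (SE 0.11, limma adjusted p = 0.019). The ribonucleotide reductase genes Rrm1 and Rrm2, whose enzyme draws on thioredoxin for DNA precursor synthesis, were not called between knockout and wild type. With GSH they fell by 0.66 (SE 0.09, limma adjusted p = 2.0e-04) and 0.33 (SE 0.055, limma adjusted p = 5.9e-04) against knockout, while Rrm2b rose by 0.27 (SE 0.09, limma adjusted p = 0.041). Of the sestrins, stress-induced proteins tied to peroxiredoxin recovery, Sesn3 fell in knockout by 0.59 (SE 0.13, limma adjusted p = 0.0063) and rose with GSH by 0.50 (SE 0.13, limma adjusted p = 0.011). Sesn1 rose in knockout by 0.37 (SE 0.09, limma adjusted p = 0.013), and Sesn2 was not called in any comparison. Of 7 genes for selenocysteine insertion, which thioredoxin reductase needs, 1 was called in each comparison. This was 14.3% each time, against 32.4%, 39.5% and 48% of all genes tested. Sephs2, which makes the selenium donor, fell in knockout by 0.33 (SE 0.10, limma adjusted p = 0.029) and rose with GSH by 0.55 against knockout (SE 0.10, limma adjusted p = 0.0013). Pstk, the kinase that acts before selenium is added to the transfer RNA, was lower with GSH than in wild type (-0.44, SE 0.15, limma adjusted p = 0.028).

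**Figure D4:**
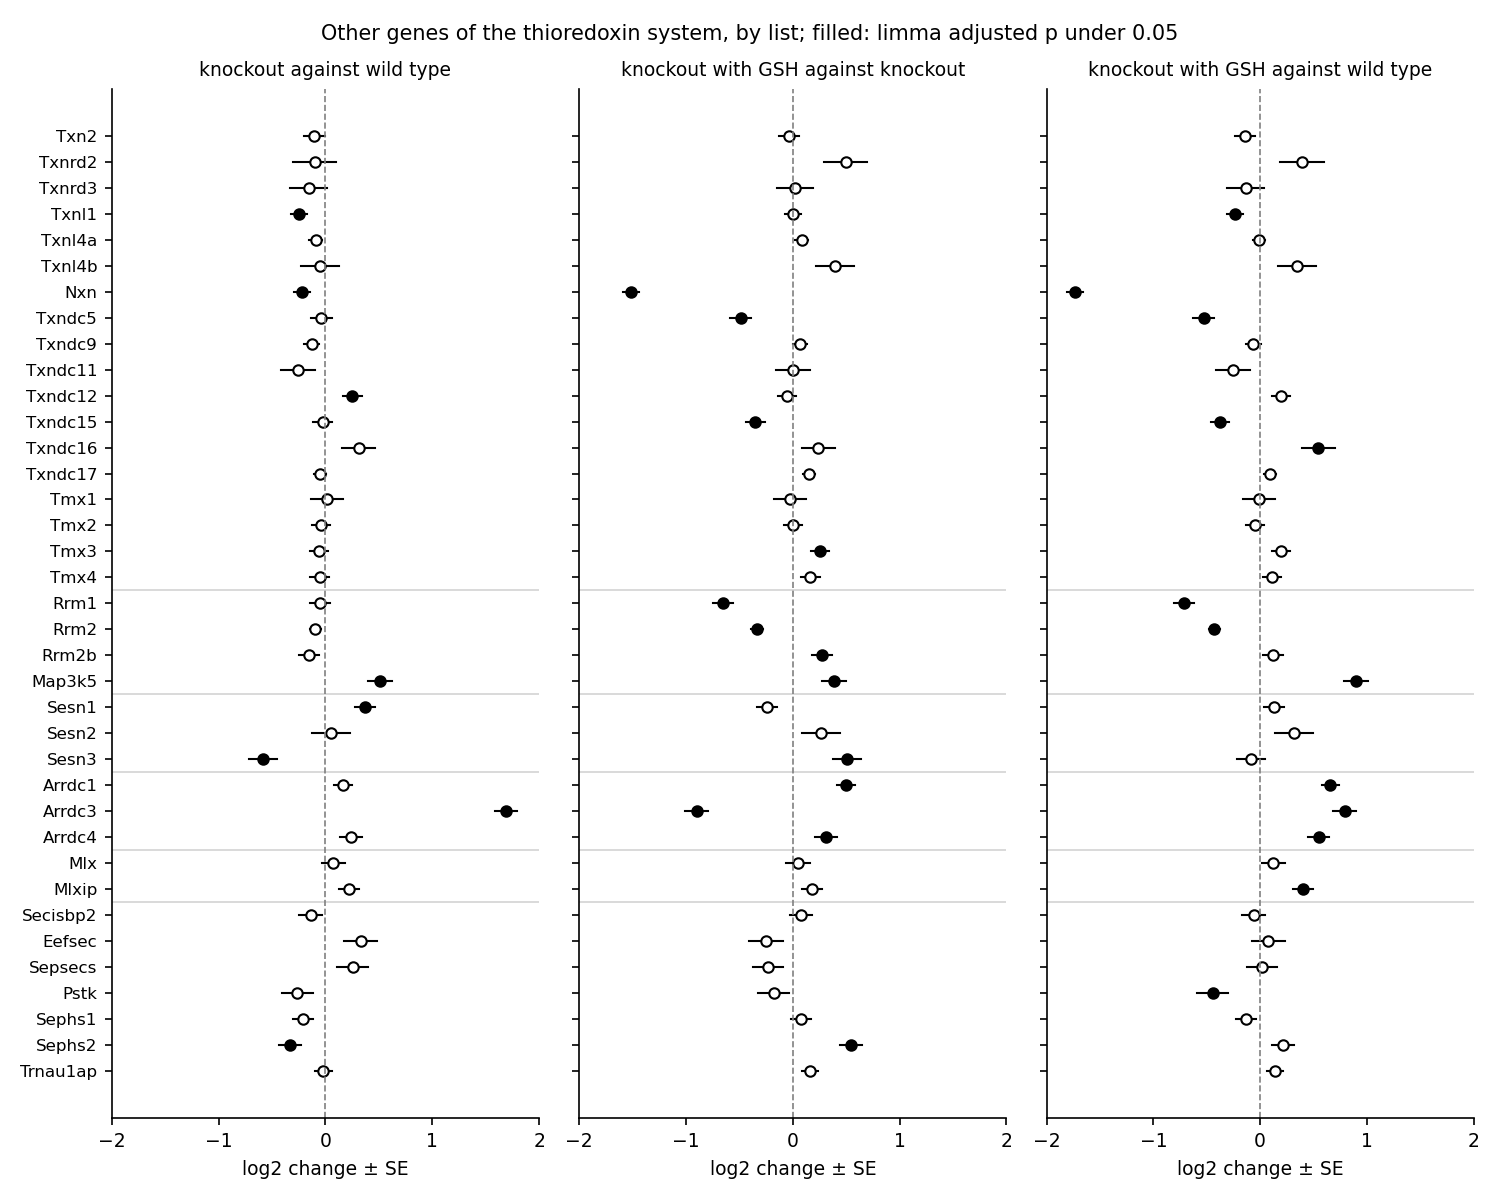
Log2 change ± SE of the 37 other thioredoxin-system genes tested, in the 3 comparisons, with grey lines between the 6 lists and filled points for a limma adjusted p under 0.05. Most points lie near 0; Arrdc3 stands out in knockout against wild type (1.69) and Nxn in GSH against knockout (-1.51).

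For each of Srxn1, Txnrd1 and Txnip, the 5 genes whose log2 signal followed it most closely over the 9 arrays were listed by Pearson correlation, as a description, since the arrays fall into 3 groups and share their set. Srxn1 was followed most closely by Ankrd50 (0.99), at 2171 ± 46.0 in wild type, and 1290.4 ± 69.7 and 1304 ± 49.2 in the knockout groups without and with GSH, and then by Gadd45g, Mtap, Zdhhc2 and Stbd1 (0.98 each). All 5 had lower means in both knockout groups than in wild type. Txnrd1 was followed by Dnaja4 (0.99), at 750.1 ± 27.9, 424 ± 14.6 and 538 ± 64.5, and by Baiap2l1, Lratd2, Rwdd4a and Slc45a3 (0.98 each), whose means with GSH lay between the others. Txnip was followed by Myd88 (0.99), at 1490.3 ± 81.8, 2029.8 ± 104 and 2141 ± 28.4, and by Batf, Glrx (both 0.99), Slc25a11 and Cd93 (both 0.98). Glrx, the glutaredoxin gene of the glutathione system, read 3927 ± 463, 8477.5 ± 1344 and 9290.4 ± 782.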

How the data were processed

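The authors deposited 1 value per probe set and array, an intensity on a linear scale that had already been scaled between arrays, for 45101 probe sets on 9 Affymetrix mouse arrays. How probes were summarised into probe sets was not found in the labels or the file headers. The 64 control probe sets were left out, 2 zeros were set to 0.1, and log2 intensities were used without further normalisation. Probe sets with a mean log2 at or above the median were tested (22519, threshold at a geometric mean of 116). The control level is the 95th percentile of 27 control probe sets for bacterial genes on each array (43.4 to 82.9). The number of arrays limits the precision.

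Groups and replicate numbers came from the sample titles. The model in limma 3.58.1 (R 4.3.3) had terms for group and set over all 9 arrays, with an intensity trend, and was tested on simulated data. There 38 to 46% of log2 changes of 0.5 and 72 to 82% of changes of 1 were called, so a small change can be missed. In that simulation 200 of 22519 probe sets were changed, fewer than were called here. The replicate numbers 2, 3 and 4 are shared by both knockout groups, and same-numbered arrays deviated together from their group means (r of 0.32, 0.29 and 0.67). The set was not removed first and same-numbered arrays share it, so these correlations cannot show a pairing. The model behind the reported values had no pairing term, and a pairing entered only as an alternative. Wild type holds the numbers 3, 4 and 5, which no label links to those of the knockout groups. With the 6 knockout arrays alone and the number as a block, the calls between the knockout groups were the same 6. Alternatives are listed at the end.

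Genes were named through the platform annotation at GEO, which gives 34945 probe sets 1 symbol, 932 several and 9160 none. Probe sets with several were not named. Upstream sequences and gene positions are from RefSeq, GRCm38.p6, and 9 of the 10 genes had a sequence there. Where a gene had several probe sets the brightest stood for it in lists. The members, lists (other thioredoxin-system genes and cell markers) and rules were chosen with earlier results of these data known. Named were all member probe sets, up to 3 genes with the smallest p per list, a few with larger p that the text turns on, and the 5 genes most correlated with Srxn1, Txnrd1 and Txnip.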

Additional observations from a re-analysis of the deposited data

How the results depend on the processing

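Over 20 alternatives, leaving aside the fold rule for single probe sets, 12 of the 23 called member differences kept their call under every one in which they were tested, 11 lost it under at least 1, and 0 changed direction. The calls for Srxn1 1426875_s_at and 1425351_at and for Txnip 1415996_at against wild type, and all 3 calls of Txnrd1 1421529_a_at, were among those kept, as were the falls of Prdx4 1416167_at with GSH in both comparisons and the rise of Txnip 1415997_at with GSH against wild type. Without the set in the model the calls were 5 in place of 8 for knockout against wild type and 2 in place of 6 for GSH against knockout. Without the intensity trend the latter count was 3. The fold rule of the design text called 5, 1 and 5 probe sets in the 3 comparisons, against 8, 6 and 9. The replicate block in place of the set gave 6, 4 and 9 calls, and with only the 2 groups compared 7, 6 and 9. Against wild type this block joins arrays by numbers that no label links. Over all probe sets tested the calls for knockout against wild type were 6560, against 2774 without the set, 3253 with the replicate block and 2098 with the block and only those groups, and for GSH against knockout 7964 against 4574 without the set. For GSH against wild type they were 10074, against 6181, 6586 and 6012 under the same 3 settings. The cause was not tested. Of the 25 differences not called, 13 changed sign under some setting. Quantile normalisation gave -0.18 and -0.057 for Txn1 1416119_at against wild type in knockout and with GSH. Set 2 alone gave 0.0017 for Txn1 1456734_at and 0.19 and 0.47 for Srxn1 1419942_at (knockout and GSH against wild type), and 0.028 for Srxn1 1425351_at between the knockout groups. The replicate block gave 0.0092 for Prdx3 in knockout against wild type. Leaving out 1 array at a time, the ranges that crossed 0 in knockout against wild type were -0.019 to 0.12 (Txn1 1416119_at), -0.34 to 0.083 (Txn1 1456734_at), -1.25 to 0.13 (Srxn1 1419942_at), -0.023 to 0.0075 (Prdx2), -0.12 to 0.016 (Prdx3) and -0.0013 to 0.28 (Prdx4 1435731_x_at). In GSH against knockout they were -0.065 to 0.15 (Srxn1 1426875_s_at), -0.067 to 0.085 (Srxn1 1425351_at), -0.17 to 0.80 (Srxn1 1419942_at) and -0.14 to 0.48 (Prdx4 1416166_a_at). In GSH against wild type they were -0.56 to 0.15 (Txnrd1 1424487_x_at) and -0.85 to 0.53 (Srxn1 1419942_at). The dimmest probe sets of Txnrd1 and Srxn1 fell below the control level on 1 knockout array each, which limits how their change can be read.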
